A study of Homo sapiens with 4 samples.

Results

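The mRNAs of 9 splicing regulators were examined for RNA recovered with IGF2BP3 in OE-19, an established human line from an adenocarcinoma at the esophagogastric junction. The genes were the muscleblind family (MBNL1, MBNL2 and MBNL3), CELF1, RBFOX2, QKI and the polypyrimidine tract binding proteins (PTBP1, PTBP2 and PTBP3). MBNL1 was chosen by its high fold enrichment in these same peak lists, and its paralogs and the other regulators were listed around it. The fold values, counts and shares of peaks below are therefore a description and not a test. Peaks were members when their summit lay in a GENCODE 44 exon of a listed gene. There were 86 such peaks of 44622 in replicate 1 and 83 of 42723 in replicate 2. The 9 genes are among 62700 annotated ones.

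The study held 4 samples of OE-19 cells grown in RPMI1640 with serum, with 2 RNA immunoprecipitations by an anti-IGF2BP3 antibody and 2 inputs taken without antibody. The labels state UV fixation for all 4, whereas the study's RIP method names no crosslinking step. RNA immunoprecipitation followed by sequencing (RIP-seq) reads the RNA that comes down with a protein. Each RIP replicate had its own MACS2 peak list, whereas input values were not analysed here. All values come from 1 cell line, and the study calls the replicates biological without saying whether they were separate cultures. Of the epithelial markers EPCAM, CDH1, KRT8, KRT18, KRT19, CLDN4 and ERBB2, CDH1 alone had exonic peaks in both replicates. Of 4 fibroblast markers, COL1A1 alone had peaks, in 1 replicate, and of 3 leukocyte markers CD68 alone had peaks, in both. A peak list gives no expression level, so these markers do not check the cell type.

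IGF2BP3 is an oncofetal RNA-binding protein that carries RRM and KH domains, binds mature mRNAs in the cytoplasm and is known to affect their stability. Muscleblind proteins are zinc finger proteins that bind pre-mRNA and mRNA, switch exons between fetal and adult forms, and are sequestered by expanded CUG repeats in myotonic dystrophy. CELF1 counteracts muscleblind on shared exons, RBFOX2 and QKI enhance or repress exons depending on where they bind, and the PTBP proteins mostly repress exons beside pyrimidine-rich tracts. Many of these regulators have alternative exons of their own, which change the localization, activity or stability of the product.

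Short alternative exons that the muscleblind paralogs share are among the exons compared below. The sequences of 3 of them are shown to let the paralogs be compared (GRCh38, GENCODE 44, 5′ to 3′ on the mRNA strand). The exon of 54 nt lies at chr3:152446704-152446757 on the plus strand in MBNL1, where it is known to promote nuclear localization of the protein, and at chr13:97356796-97356849 on the plus strand in MBNL2. Capitals mark bases that differ from MBNL1 at the same position, 9 in MBNL2.
MBNL1 exon of 54 nt: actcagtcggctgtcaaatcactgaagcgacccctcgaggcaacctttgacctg
MBNL2 exon of 54 nt: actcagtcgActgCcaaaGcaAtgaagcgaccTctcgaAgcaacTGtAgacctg

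The exon of 36 nt lies at chr3:152455542-152455577 (plus strand) in MBNL1, chr13:97365136-97365171 (plus strand) in MBNL2 and chrX:132384663-132384698 (minus strand) in MBNL3. It differed from MBNL1 at 5 bases in MBNL2 and at 7 in MBNL3, again in capitals.
MBNL1 exon of 36 nt: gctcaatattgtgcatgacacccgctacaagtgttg
MBNL2 exon of 36 nt: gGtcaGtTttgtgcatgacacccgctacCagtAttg
MBNL3 exon of 36 nt: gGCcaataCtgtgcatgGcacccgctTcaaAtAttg

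The exon of 95 nt lies at chr3:152456267-152456361 (plus strand) in MBNL1, chr13:97366459-97366553 (plus strand) in MBNL2 and chrX:132382178-132382272 (minus strand) in MBNL3. It held the strongest MBNL1 peak of replicate 1 and differed from MBNL1 at 14 bases in MBNL2 and 15 in MBNL3.
MBNL1 exon of 95 nt: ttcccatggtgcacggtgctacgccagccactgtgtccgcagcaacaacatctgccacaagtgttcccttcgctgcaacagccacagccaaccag
MBNL2 exon of 95 nt: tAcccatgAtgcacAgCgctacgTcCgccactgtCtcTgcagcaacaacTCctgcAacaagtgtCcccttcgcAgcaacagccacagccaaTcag
MBNL3 exon of 95 nt: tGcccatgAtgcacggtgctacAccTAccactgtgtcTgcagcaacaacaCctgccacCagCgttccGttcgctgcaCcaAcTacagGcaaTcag

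None of these 8 exon sequences contained GGAC, the core of the m6A consensus. The strongest MBNL1 peak of each replicate lay in the coding sequence (CDS), and its summit is shown within 50 nt of mRNA on either side. Capitals mark the summit base and 5 bases on either side of it. The replicate 1 summit, at position 152456320 of chromosome 3, lay in exon 8, and its window ran into exon 9. The replicate 2 summit, at position 152414992, lay in exon 3.
MBNL1 summit window, replicate 1: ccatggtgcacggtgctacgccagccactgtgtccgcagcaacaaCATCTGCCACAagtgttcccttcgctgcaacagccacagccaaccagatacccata
MBNL1 summit window, replicate 2: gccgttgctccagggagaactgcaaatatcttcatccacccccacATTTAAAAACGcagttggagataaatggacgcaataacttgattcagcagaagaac

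The replicate 2 window contained TGGAC, which is UGGAC in RNA and is the motif that the study names, at 1 place, and the replicate 1 window contained neither TGGAC nor GGAC.

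To see how far the regulators differed, peaks were counted per gene. The fold enrichment is the ratio of RIP pileup to local background at the summit, taken from the deposited MACS2 output. Of the 9 genes, 7 had an exonic summit in both replicates, compared with 28.0% of 20033 protein-coding genes. PTBP1 had summits in replicate 2 alone, and PTBP2 had none in either list. A peak with a q of at most 0.05, the caller's p corrected for multiple testing, was present in both replicates in 4 genes (MBNL1, MBNL2, MBNL3 and PTBP3), compared with 4.93% of protein-coding genes.

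MBNL1 (chromosome 3, 152243828 to 152465780, plus strand) had 14 exonic peaks in each replicate, with highest folds of 10.8 in replicate 1 and 9.24 in replicate 2. These ranked 5 and 7 among the 5619 protein-coding genes with summits in both lists. MBNL2 (chromosome 13, 97221434 to 97394120, plus strand) had 11 peaks in each, with highest folds of 8.02 and 7.67. MBNL3 (chromosome X, 132369320 to 132489968, minus strand) had 14 and 19 peaks, with highest folds of 6.72 and 5.20. By highest fold, the muscleblind genes stood in the order MBNL1, MBNL2, MBNL3, and the replicate values of neighbours in that order did not overlap. The MBNL1 values came from different exons. Its exon 8, highest in replicate 1, had 4.74 in replicate 2, and its exon 3, highest in replicate 2, had 3.13 in replicate 1. MBNL1 was also chosen by its high fold, so its first place is no test.

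RBFOX2 (chromosome 22, 35738736 to 36028824, minus strand) had 18 and 12 peaks, with highest folds of 6.85 and 5.01, and so overlapped MBNL3. PTBP3 (chromosome 9, 112217716 to 112333664, minus strand) had 18 and 14 peaks, with highest folds of 5.26 and 4.13. Its range overlapped those of RBFOX2 and MBNL3. QKI (chromosome 6, 163414000 to 163578592, plus strand) had 6 and 8 peaks, with highest folds of 3.94 and 3.85. CELF1 (chromosome 11, 47465933 to 47565569, minus strand) had 5 and 3 peaks, with highest folds of 3.19 and 3.28. QKI lay below PTBP3 and above CELF1 in both replicates, at percentiles 59.5 and 62.6 of the highest folds of those 5619 genes, against 31.7 and 41.3 for CELF1. A gene with more peaks has more chances of a high one, and the number of peaks was not held equal here.

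**Figure D1:**
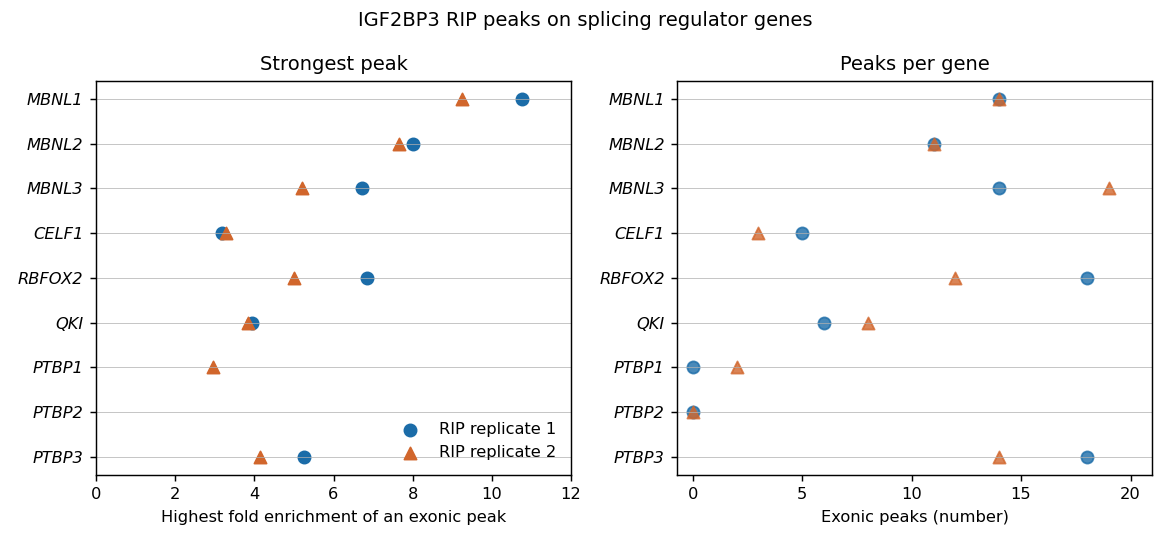
Highest fold enrichment of an exonic peak (left, ratio) and number of exonic peaks (right) for each of the 9 splicing regulators, with a circle for RIP replicate 1 and a triangle for replicate 2. MBNL1 had the highest fold in both replicates (10.8 and 9.24), and PTBP2 had no peak.

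The genes nearest to MBNL1 by the highest log2 fold of both replicates, as a distance over 2 replicates, were EIF4G3 (folds of 10.95 and 8.86), SEC24B (10.8 and 9.77) and ARID1A (10.8 and 8.66). They had more peaks than MBNL1, from 17 in ARID1A in replicate 1 to 34 in EIF4G3.

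Member peaks recurred between the lists. In replicate 1, 65 of 86 member peaks (75.6%) overlapped a replicate 2 peak by at least 1 bp, compared with 60.2% of all peaks. In replicate 2, 66 of 83 (79.5%) overlapped one of replicate 1, compared with 64.2%. All 14 MBNL1 peaks of each list overlapped a peak of the other, and 0 of the 8 CELF1 peaks did. Of the 86 peaks, 19 had a q within 0.05 in replicate 1 (22.1%, against 9.77% of all peaks), as did 15 of the 83 in replicate 2 (18.1%, against 7.47%). Of these, MBNL1 held 6 and 7, MBNL2 held 5 and 4, and MBNL3 held 3 in each. RBFOX2 held 4 and 0, and PTBP3 held 1 in each. Since MBNL1 was chosen by its fold in these lists, these shares are no test of an excess over all peaks.

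Fold values were compared between replicates in the same way. Peaks of the replicates that were each other's best overlap gave 62 member pairs, in which the larger fold exceeded the smaller by a median of 1.25 times and at most 3.07 times. For all 26134 such pairs the median was 1.20. In MBNL1 the median was 1.48 over 14 pairs, and 7 of them differed by at least 1.5 times. Pearson's r of log2 fold was 0.20 over the 14 MBNL1 pairs and 0.65 over the 10 MBNL2 pairs, given as a description since the peaks of a gene share libraries and local background.

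MBNL1 summits were found from the first exon to the last. In replicate 1 the peaks nevertheless left stretches of exons 2, 3, 4, 5 and 10 uncovered. The 2 exon 10 summits of that replicate lay 117 and 2707 nt past the last coding base. Each of the 10 exons of the canonical transcript, of 5516 nt, had a summit in both replicates, which held for 0.676% of the 4141 targets with 8 or more exons. In those targets the median share of exons with summits in both lists was 18.5%. The share was 77.8% in MBNL2 and MBNL3, 64.3% in PTBP3, 62.5% in QKI, 35.7% in RBFOX2 and 6.67% in CELF1. The MBNL1 exon 1 summits also lay in an exon of MBNL1-AS1. Without these peaks exon 1 of MBNL1 would have no summit, and not every exon would be hit. The number of exons was not held equal between genes. In summits per kb of mRNA, MBNL1 and MBNL2 were alike, with 2.18 and 2.15 in each replicate, compared with medians of 1.13 and 1.07 over all targets. MBNL3 had 1.06 and 1.54 on an mRNA of 12302 nt, most of it 3′ UTR. PTBP3 (2.50 and 1.95) and RBFOX2 (2.36 and 1.52) stood above MBNL1 in replicate 1 and below it in replicate 2. CELF1 (0.615 and 0.369) and QKI (0.639 and 0.853) lay below the medians of all targets.

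The strongest MBNL1 sites differed between replicates. In exon 8, the alternative exon of 95 nt shown above, the fold was 10.8 with a q of 5.64e-16 in replicate 1, and 4.74 with a q of 0.0392 in replicate 2. In exon 9, of 75 nt, the folds were 8.34 and 2.72, the widest difference of the gene, and the q was 2.76e-08 and 1. In exon 3, of 171 nt, which encodes part of the zinc finger region, the order was opposite, with 3.13 in replicate 1 and 9.24 in replicate 2 (q of 0.421 and 6.81e-08). Exon 4, of 204 nt, gave closer values of 6.55 and 5.40, both with a q under 0.05.

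Both replicates reached a q of at most 0.05 at 8 pairs of overlapping member peaks, and 4 of these lay in MBNL1. They were exon 2 in the 5′ UTR, with folds of 5.05 and 5.01, exon 4, the exon of 54 nt and exon 8. In MBNL2 there were 3, exon 3 with folds of 8.02 and 7.49, exon 4 with 4.68 and 7.67, and the distal 3′ UTR with 7.12 and 6.08. The remaining pair was exon 3 of PTBP3, with 5.26 and 4.13. MBNL3 had no such pair, although 3 of its peaks in each replicate reached that q, at different exons.

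**Figure D2:**
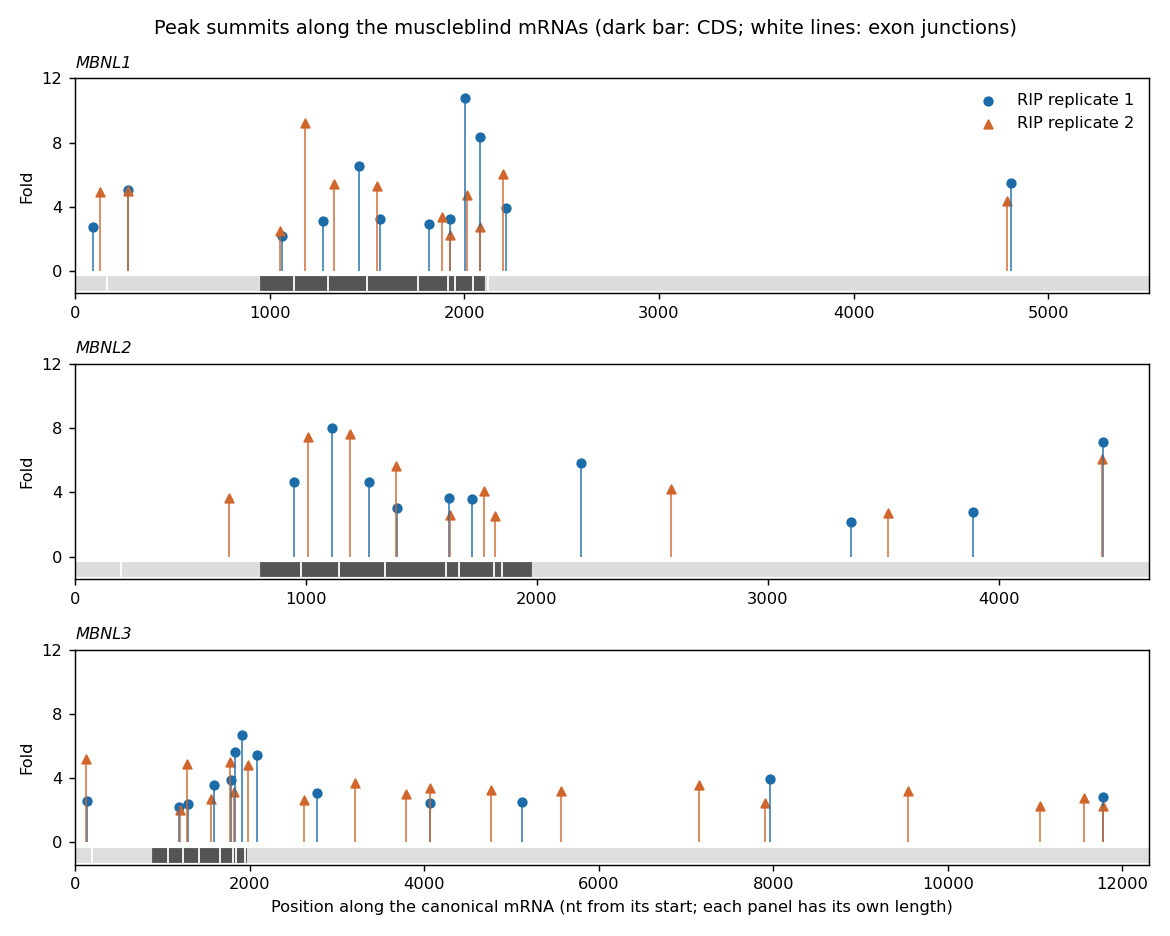
Summits of both RIP replicates along the canonical mRNAs of MBNL1, MBNL2 and MBNL3 (x axis, nt from the mRNA start; y axis, fold enrichment; circles, replicate 1; triangles, replicate 2), with the CDS as a dark bar and exon junctions as white lines. Summits stood close together over the CDS, where the highest folds of MBNL1 lay, and MBNL3 had further summits along its long 3′ UTR.

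The exon of 54 nt, which the canonical MBNL1 transcript lacks and 5 of the 16 coding transcripts spanning it include, had a fold of 7.09 in replicate 1 and 5.78 in replicate 2. Its q was 1.65e-06 and 0.00021, and the summits of both lists fell on the same base. The peaks spanned 152446682 to 152446777 and 152446709 to 152446775, so that the first was wider than the exon and reached past both of its edges. In MBNL2, whose canonical transcript includes the exon, the folds were 3.67 and 2.62, with a q of 0.483 and 1. The MBNL1 values lay above those of MBNL2 in both replicates. No exon of 54 nt is set against them in MBNL3.

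The exon of 36 nt had lower values in MBNL1, with folds of 3.21 and 2.26. In MBNL2 it had a peak in replicate 2 alone, with a fold of 2.52. In MBNL3 the folds were 5.64 and 3.15, with a q of 0.000224 and 1. This exon is included by 8 of 16 spanning coding transcripts in MBNL1, 4 of 8 in MBNL2 and 11 of 13 in MBNL3.

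For the exon of 95 nt, the folds of MBNL1 (10.8 and 4.74) stood above those of MBNL2 (2.93 and 3.15). The 10.8 is the highest fold of MBNL1, which was chosen by its high fold, so this comparison is no test. MBNL3 had a fold of 6.72 with a q of 3.73e-05 in replicate 1, its strongest peak, and no summit there in replicate 2. It is included by 11 of 16 spanning coding transcripts in MBNL1, 3 of 8 in MBNL2 and 11 of 12 in MBNL3. A further MBNL1 exon outside the canonical transcript, of 120 nt and included by 2 of 18, had folds of 3.21 and 2.01.

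The larger coding exons gave a different order. In MBNL2 exon 3, of 165 nt and 77.5% identical to MBNL1 exon 3 over aligned bases, the folds were 8.02 and 7.49, whereas in MBNL3 exon 3 (75.6%) they were 2.22 and 2.002. MBNL3 lay below MBNL2 in both replicates and also below MBNL1. In exon 4 the folds were 4.68 and 7.67 in MBNL2 and 2.41 and 4.87 in MBNL3. Exon 5 gave 3.21 and 5.27 in MBNL1, 3.06 and 5.67 in MBNL2 and 3.60 and 2.72 in MBNL3. At MBNL1 exon 6 the folds were 2.92 and 3.34, at the corresponding exon 7 of MBNL2 3.60 and 4.08, and at exon 6 of MBNL3 3.89 and 5.01. The paralogs thus overlapped in exon 5, and the order by highest fold did not hold in every exon.

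**Figure D3:**
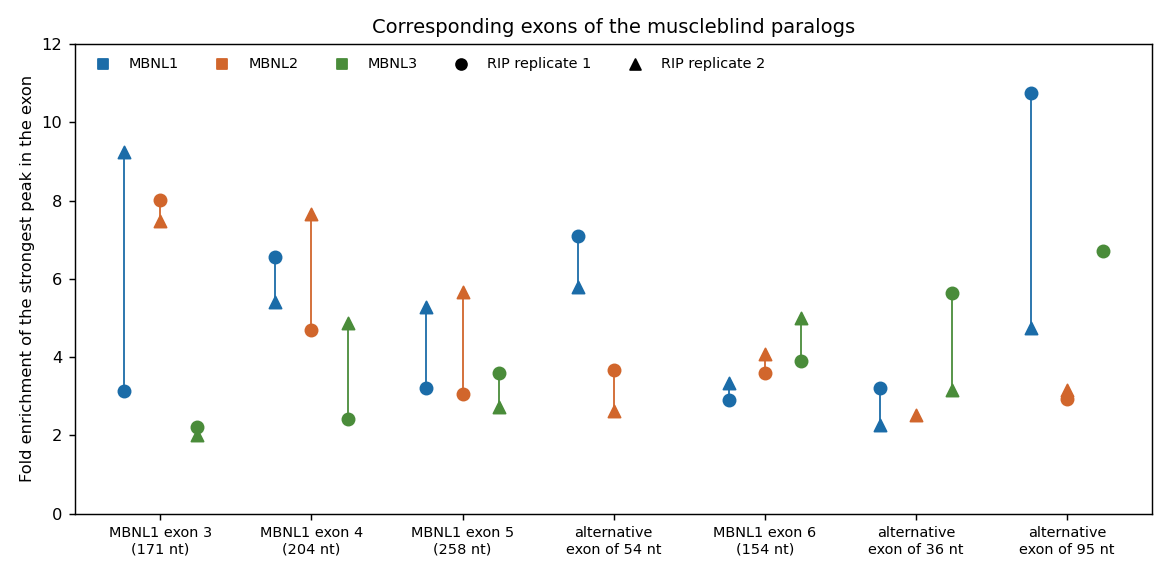
Fold enrichment of the strongest peak (y axis) in corresponding exons of MBNL1 (blue), MBNL2 (orange) and MBNL3 (green), with a circle for RIP replicate 1, a triangle for replicate 2 and a line joining them where both had a peak. MBNL1 stood above MBNL2 in the alternative exons of 54 and 95 nt, of which the exon of 95 nt held its highest fold in replicate 1. In the exon of 36 nt MBNL2 had a peak in replicate 2 alone, with a fold above that of MBNL1. MBNL3 lay lowest in the exon corresponding to MBNL1 exon 3, and MBNL1 lay lowest in exon 6.

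Canonical mRNAs of the paralogs shared identical runs shorter than a read. Exons outside the canonical transcripts did not enter this check, and the mapping of reads was not examined. The longest identical run between canonical mRNAs was 20 nt for MBNL1 and MBNL2, 17 nt for each of them with MBNL3, and 21 nt for PTBP2 and PTBP3, compared with reads of 150 nt. The CDS of MBNL1 was 72.1% identical to that of MBNL2 and 74.4% to that of MBNL3 over aligned bases. The MBNL1 exon 1 summits also lay in an exon of MBNL1-AS1, and since the lists carry no strand these 2 peaks cannot be assigned to one of the genes.

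In the 3′ UTRs, member peaks ranged in width from 51 to 2419 bp in replicate 1 and from 32 to 1547 bp in replicate 2. The first MBNL1 peak of its last exon spanned 1657 bp in replicate 1 and 1512 bp in replicate 2, with summits 117 and 97 nt past the last coding base and folds of 3.89 and 6.05. A second, with summits 2707 and 2691 nt past it, had folds of 5.47 and 4.34. In MBNL2, the widest peaks spanned 1179 and 1184 bp, and the distal peak had summits 2 nt apart. MBNL3 had 6 and 13 summits in its 3′ UTR, of which the one with the highest fold in each replicate lay 130 and 32 nt past the last coding base, with folds of 5.47 and 4.82.

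The PTBP paralogs differed in whether peaks were called at all. PTBP3 had summits in 11 and 10 of its 14 exons, 9 of them in both replicates, whereas PTBP1, the form of most non-neuronal cells, had 2 peaks in replicate 2 and 0 in replicate 1. PTBP2, the neuronal form, had 0. The PTBP1 peaks lay in exon 9, of 78 nt, with a fold of 2.94, and in exon 13, of 217 nt, with a fold of 2.97, and each had a q of 1. Exon 9 is an alternative exon of the linker between RRM domains, included by 6 of 10 spanning coding transcripts.

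PTBP3 exon 3, of 170 nt, had folds of 5.26 and 4.13 with a q of 0.00473 and 0.044, and was the sole PTBP exon with a q of at most 0.05. Other PTBP3 summits had folds from 1.87 to 4.02. The exon of 34 nt whose inclusion keeps PTBP1 and PTBP2 mRNAs productive had no summit in any of the 3 genes. The coding sequences were 71.2% identical between PTBP1 and PTBP3, and the mRNA of PTBP3 was longer, 7192 nt against 3206 nt in PTBP1 and 3321 nt in PTBP2. Expression of the 3 genes was not measured here, and peaks need RNA, so absence from a list does not show absence of binding.

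RBFOX2 held its strongest peak in exon 6, of 93 nt, with a fold of 6.85 and a q of 1.94e-05 in replicate 1, and had no summit there in replicate 2. Summits fell in 11 of 14 exons in replicate 1 and in 7 in replicate 2, and 5 exons had one in both. Exon 3 gave folds of 4.10 and 5.01, exon 1 gave 4.77 and 3.87, and none of the 10 RBFOX2 pairs differed by 1.5 times or more. The 3′ UTR had 7 and 5 summits, with a highest fold of 5.34 in replicate 1 and 3.95 in replicate 2.

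QKI, a KH-domain protein whose isoforms differ in their last exons, had 4 shared peaks per replicate, all in the CDS. These were exons 3, 5, 6 and 7, with folds from 2.28 to 3.94 in replicate 1 and from 2.38 to 3.71 in replicate 2. Its 3′ UTR of 7885 nt had 1 and 2 summits, none of them shared. CELF1 had folds from 2.25 to 3.28, each with a q of 1.

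**Figure D4:**
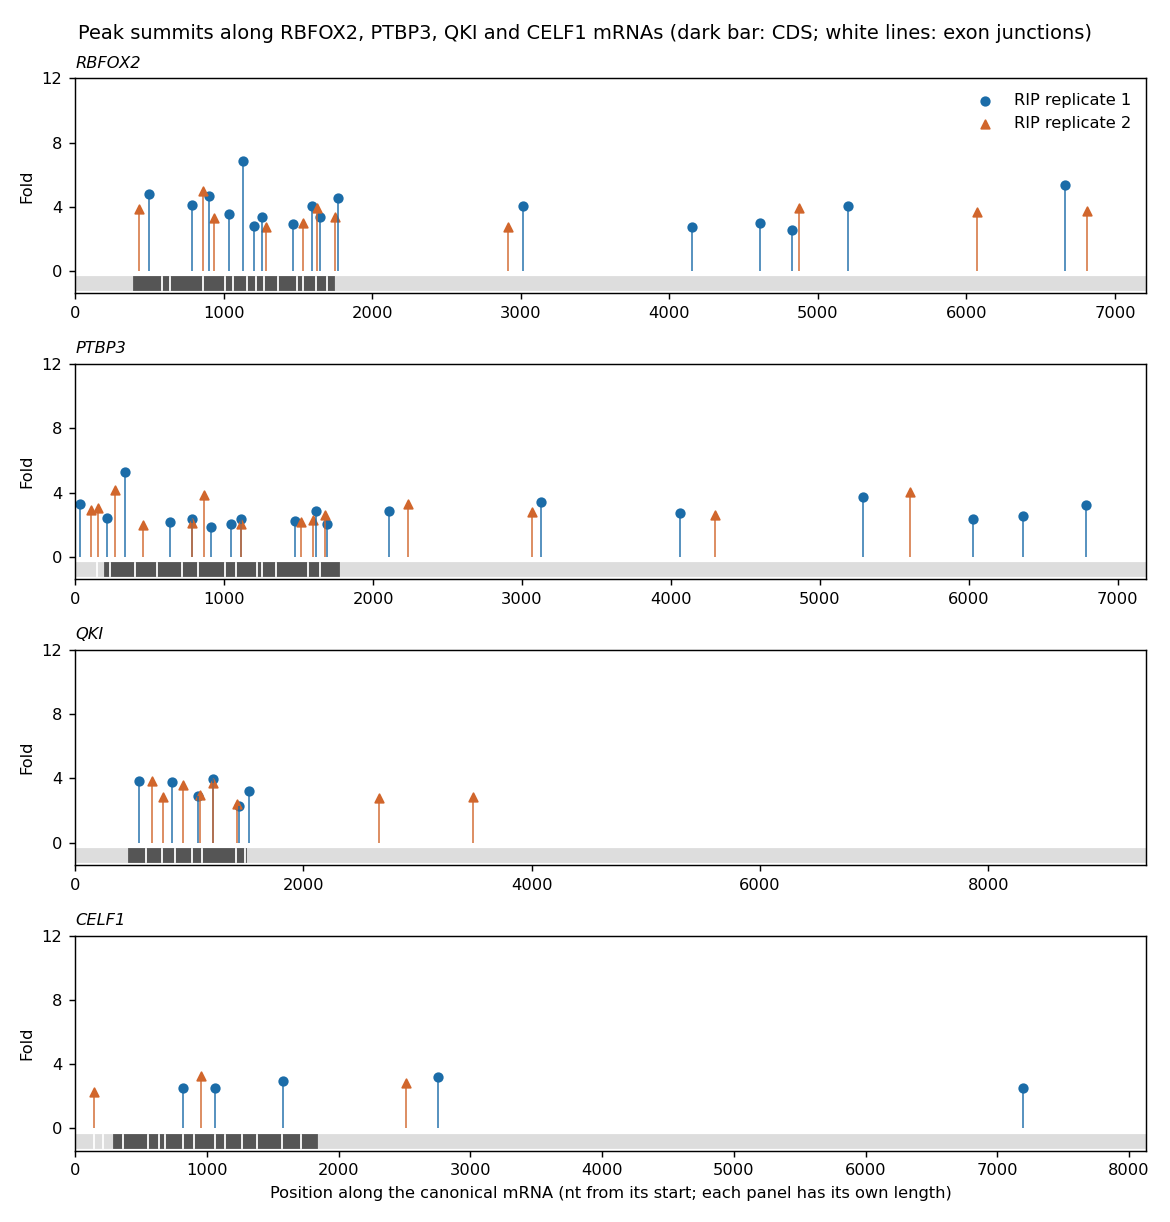
Summits of both RIP replicates along the canonical mRNAs of RBFOX2, PTBP3, QKI and CELF1 (x axis, nt from the mRNA start; y axis, fold enrichment; circles, replicate 1; triangles, replicate 2), with the CDS as a dark bar and exon junctions as white lines. PTBP3 had summits over most CDS exons and along the 3′ UTR. RBFOX2 had summits in 11 of its 14 exons in replicate 1 and in 7 in replicate 2, and along its 3′ UTR. QKI had them mainly over the CDS, and CELF1 had 8 scattered summits of which none overlapped between replicates. RBFOX2 summits in exons outside the canonical transcript are not drawn.

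By region of the mRNA, the CDS held 56.2% ± 4.31 of member summits and the 3′ UTR 36.9% ± 1.54 (SD, n = 2 each). Over all mRNAs these shares were 78.0% ± 1.02 and 18.4% ± 0.948 (SD, n = 2 each). The canonical mRNAs of the members are 19.9% CDS and 73.3% 3′ UTR by length, with a median CDS of 1341 nt against 1821 nt over all targets.

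Alternative positions, which at least 1 spanning coding transcript of the gene skips, held 22 of 86 member summits (25.6%) in replicate 1 and 24 of 83 (28.9%) in replicate 2. Over all coding genes the shares were 13.0% and 13.1%. Of the exonic bases of the member genes, however, 26.3% were alternative by the same definition, close to the share of summits. At stricter settings the share of summits moved, and the mean of the replicates, 27.2%, became 50.4% among peaks whose q was within 0.05. Most of those peaks lay in the muscleblind genes, and none in CELF1 or QKI, where 52.2% and 43.5% of exonic bases were alternative. The share of bases was not recomputed for the genes left. Where at least 25% of spanning transcripts had to skip the position, the summit share was 14.8%. The share of bases was not computed by that rule, so these shares cannot be compared. Bases are a limited reference here, since the CDS held 56.2% of member summits on 19.9% of the mRNA length. In MBNL1, 8 of 14 summits in each replicate were at alternative positions, compared with 32.5% of its exonic bases. In RBFOX2 2 of 18 and 2 of 12 were, compared with 12.9% of bases. QKI lay the other way, with 1 of 6 and 1 of 8 summits against 43.5% of bases. MBNL2 had 5 of 11 and 6 of 11 against 37.6%, and MBNL3 had 3 of 14 and 2 of 19 against 13.2%. CELF1 had 2 of 5 and 2 of 3 against 52.2%, and PTBP3 had 1 of 18 and 1 of 14 against 5.57%. The number of annotated transcripts sets this measure, and it does not show which isoform was recovered.

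Peaks were next compared with the edges of the internal exons of the canonical transcript that held their summits. Of member peaks in internal exons, 16 of 46 in replicate 1 and 17 of 44 in replicate 2 reached past both exon edges, or 34.8% and 38.6%, compared with 11.6% and 10.7% over all coding genes. At least 1 edge was passed by 71.7% and 68.2%, compared with 45.7% and 43.4%. Exons had similar lengths, with medians of 142 and 149 nt in the members and of 144 and 142 nt over all coding genes, but member peaks were wider, with medians of 106 and 132 bp against 101 and 98 bp. The median part of the exon that a peak covered was 85.5% and 95.4% in the members, compared with 68.3% and 68.6%. In MBNL1 alone, 4 of 9 peaks in replicate 1 and 5 of 9 in replicate 2 reached past both edges. The members were listed around MBNL1, which was chosen by its fold, so these shares are no test of a difference from all genes.

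**Figure D5:**
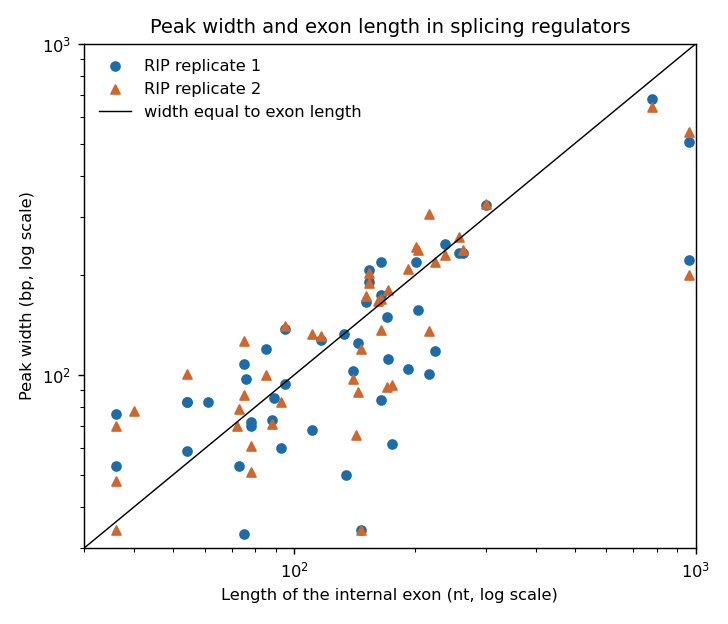
Width of each member peak (y axis, bp, log scale) against the length of the internal exon that holds its summit (x axis, nt, log scale) in RIP replicate 1 (circles) and replicate 2 (triangles), with a line where both are equal. Many peaks lay near the line, and 16 of 46 peaks in replicate 1 and 17 of 44 in replicate 2 reached past both edges of their exon. Peaks in exons outside the canonical transcript are not drawn.

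The GGAC sequence was less frequent around member summits, with 50 nt taken each way, than around all mRNA summits. On the mRNA strand, 11 of 80 windows (13.8%) contained GGAC in replicate 1 and 20 of 79 (25.3%) in replicate 2, compared with 32.0% of all windows in each replicate. TGGAC, which includes GGAC, was found in 3 and 6 of these windows, or 3.75% and 7.59%, compared with 12.9% of all windows in each. The SD of the GGAC share was 8.18 percentage points over the 2 replicates, and the share of 3′ UTR windows also differed from that of all mRNAs. Its part in the difference was not tested.

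Other splicing regulators were counted for comparison. Of 68 further genes, 14 (20.6%) had an exonic summit in both replicates, compared with 28.0% of all protein-coding genes, and 48 had none in either. Of the 13 SR and TRA2 proteins, which bind exonic enhancers, 1 did (SRSF10), and of 20 hnRNP proteins and their relatives 4 did (HNRNPU, HNRNPUL1, HNRNPLL and SYNCRIP). The highest mean folds were those of RBM47 (2.88 and 5.99), HNRNPUL1 (4.85 and 3.68) and RBM10 (5.02 and 3.28). The most peaks were found in ESRP1, an epithelial splicing regulator, with 8 and 9, its paralog ESRP2 with 6 and 5, and HNRNPUL1 with 5 and 8. None of the 68 had a peak with a q of at most 0.05 in both replicates. The median of the mean highest fold was 3.25 over the 14, 5.93 over the 7 members with both and 3.59 over all 5619 genes. The RBFOX2 paralogs RBFOX1 and RBFOX3 had no peak, and of the CELF1 paralogs CELF5 alone had peaks, 1 and 2. Expression of the 68 genes was not measured here, and the difference in share from all protein-coding genes was not tested.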

How the data were processed

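RIP-seq peak lists of 2 IGF2BP3 RIP replicates were used, and the 2 inputs were not analysed here. According to the methods, the authors mapped paired-end reads of 150 nt to hg38 with Tophat2, whereas the labels list fastp and HISAT2, and called peaks per sample with MACS2 at default settings. The control library is not given in the sources used here. The deposited fold enrichment is a ratio, the deposited −log10 p-value and −log10 q-value are those at the summit, and the deposited score is derived from the p and was not used. No deposited peak had a −log10 p under 2.000 (replicate 1) or 2.002 (replicate 2), as a limit of 0.01 on the uncorrected p would give. In both lists −log10 q had a median of 0. The MACS2 default is a limit of 0.05 on q, so the lists do not match the default settings that the methods state. Read depth is unknown, so no counting interval was given.

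Summits were assigned to GENCODE 44 exons without strand, and chromosome names and coordinates are those of GRCh38. Positions used the Ensembl canonical transcript, and its CDS was counted without the stop codon. Sequences were read from the GENCODE 44 transcripts. No test was run, since peak lists of 1 group of 2 replicates were analysed. Genes were named by a fixed rule: the 9 members, the 3 genes nearest to MBNL1, and among 68 other regulators the 3 highest in fold and in peaks. The members and lists were chosen with earlier results of these data known. Assignment, positions and overlaps were tested on simulated data, and alternatives varied the peak limit, overlap, assignment, transcript, window and joining distance. Tools were biopython 1.88 for alignments, matplotlib 3.10.9 for plots, and pandas 2.3.3, numpy 2.4.6 and scipy 1.17.1 under Python 3.11.15.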

Additional observations from a re-analysis of the deposited data

Results flagged for a closer look

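Summits in introns of the 9 genes did not enter the comparisons and are given because signal appeared outside the exons. There were 3 in replicate 1 and 5 in replicate 2, with highest folds of 2.92 and 3.02 and none with a q of at most 0.05. Of these, 2 and 3 overlapped a peak of the other replicate, in MBNL1 and PTBP3. No input peak list was used for comparison.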

How the results depend on the processing

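No paired analysis was possible because peak lists of the RIP samples alone were analysed here, so no result tests one group against another. Of 39 values under alternatives that used both replicates, 12 stayed within the replicate SD, or for counts within 1.5 times, and 27 did not. Stricter limits leave fewer peaks by construction, and otherwise the cause was not tested. With a q of at most 0.05, 4 members had a summit in both replicates, with 17.0 peaks per replicate, 47.7% shared, 66.3% in the CDS, 23.8% in the 3′ UTR, 50.4% at alternative positions and 0 other regulators in both. With a p of at most 1e-05 the peaks were 22.5, and the shares 49.5%, 66.8%, 23.1% and 46.5%, with 0 other regulators. With a fold of at least 5, 4 members remained in both, with 14 peaks, 35.9%, 61.9%, 26.2%, 46.4% and 0 other regulators. With an overlap of at least 50% of each peak, 58.6% were shared. Alternative positions held 14.8% of summits when at least 25% of spanning transcripts had to skip them and 30.8% over all transcripts. GGAC was in 8.15% of windows of 25 nt on either side and in 35.4% of those of 100 nt. Sites per mRNA, 7.44 when summits within 100 nt were joined, became 8.67 at 50 nt and 5.50 at 200 nt. Leaving out a replicate gave the other replicate's value, from 83 to 86 peaks, 75.6% to 79.5% shared and 13.8% to 25.3% of windows with GGAC. Assignment by any exon overlap, by gene body or to 1 gene kept 7 members.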

Other observations

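Fold values came in repeated steps. Of the 86 member peaks in replicate 1, 26 carried exactly the fold of another member peak, as did 21 of the 83 in replicate 2. The MBNL1 exons of 36 and 120 nt, for example, both had 3.21 in replicate 1. Pearson's r of log2 fold was 0.14 over the 12 pairs of MBNL3, 0.11 over the 10 pairs of RBFOX2 and 0.50 over the 12 pairs of PTBP3, as a description without a test.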
